A study of Mus musculus with 15 samples.

Results

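A set of 20 genes was higher in every *Pbrm1* knockout tumor than in every control tumor by a fixed margin, and their levels are described here across 15 Renca tumors. A gene was taken when its mean normalized count over the 15 tumors was at least 50 and its lowest value among the 10 knockout tumors was at least 1.5 times its highest value among the 5 control tumors. Of 13298 genes with such a mean, 21 met the ratio (0.158%), and leaving out *Igf2* and *H19* by name left 20, since *Igf2* met it and *H19* did not. The knockout against control values therefore chose the genes, and they are given below as a description with no test. The mirrored rule, with every control tumor at least 1.5 times above every knockout tumor, was met by 107 genes (0.805%).

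Renca is a murine renal cell carcinoma line of BALB/c origin, and the tumors grew under the skin of female BALB/c mice aged 4 to 6 weeks at purchase, until a size limit, ulceration or distress. Controls were tumors 1 to 5, labelled as Renca parental cells, which the study's methods describe as control knockout cells made with a control CRISPR plasmid. Tumors 6 to 10 came from *Pbrm1* knockout clone 4 and tumors 11 to 15 from *Pbrm1* knockout clone 18. Both clones were made with a CRISPR/Cas9 plasmid plus a homology-directed repair plasmid carrying puromycin resistance and red fluorescent protein, and each was grown from a sorted single cell. Each group was thus 1 cell line in 5 mice, so the loss of *Pbrm1* and the history of a line cannot be told apart, and the spread is that between tumors of a line. The mice were left untreated or given PD-1 antibody, and the labels do not say which mouse received which.

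*Pbrm1* encodes PBRM1 (BAF180), a bromodomain subunit of the PBAF form of the SWI/SNF complex, which moves nucleosomes and so changes access to DNA. The genes raised here encode proteins of many kinds, among them a plasma carrier of vitamin D, a matrix protease, membrane transporters, a vasopressin receptor and a lysosomal enzyme. In a bulk tumor, fewer cells of a type and less RNA per cell cannot be told apart.

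*Pbrm1* itself, the targeted gene, had normalized counts of 9012 ± 956 in the controls, 2751 ± 213 in clone 4 and 2838 ± 210 in clone 18 (mean ± SD, n = 5 each, as for all such values). The libraries held between 32924414 and 49099168 reads on genes, with a median of 40860659. Renal epithelial genes were present, with a mean of 3390 for *Pax8*, 23211 for the kidney cadherin *Cdh16* and 54195 for the keratin *Krt8*. Of 14 lists of markers of other cell types, 1 differed in summed level without overlap. The 11 macrophage markers summed to 90978 to 116128 in the controls, 69635 to 87382 in clone 4 and 63485 to 87387 in clone 18, and 6 of the 11 were lower in knockout tumors by limma, as were 12.9% of all genes tested. Among the other lists, 6 of 15 T cell markers and 3 of 5 B cell markers were lower. So were 3 of 7 Schwann and nerve, 2 of 8 neutrophil, 2 of 8 adipocyte and 1 of 7 dendritic cell markers. In the red cell list 1 of 7 markers was higher, and no marker on the remaining lists passed. The part of these cell markers in the results below was not tested.

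The promoters of 19 of the 20 genes were matched in RefSeq (GRCm38.p6, 300 bases around each annotated start), and *Slc52a3* was not. Bases before the start are shown for 3 of the 4 genes with the widest gap between the groups, because these carried matches to CRE, AP-1 or TATA box letters. The *Gpm6b* stretch ends where the GENCODE gene begins, upstream of the RefSeq start. The *Atp13a4* stretch also holds a GC box and a CCAAT box, both described below, which are left in lower case. Capitals mark only the CRE, AP-1 and TATA box letters, and every motif was searched on both strands. In *Gpm6b* they mark TGACGTCA, a cyclic AMP response element (CRE). In *Atp13a4* and *Mmp10* they mark TGANTCA, the letters bound by AP-1. *Mmp10* also has the TATA box, TATAAA. The regions are chrX:166238793-166238910 (plus strand) for *Gpm6b*, chr9:7502192-7502341 (plus strand) for *Mmp10* and chr16:29544865-29545054 (minus strand) for *Atp13a4*.
Gpm6b: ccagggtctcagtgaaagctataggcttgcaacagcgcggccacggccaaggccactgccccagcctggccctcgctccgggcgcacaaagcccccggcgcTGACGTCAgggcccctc
Mmp10: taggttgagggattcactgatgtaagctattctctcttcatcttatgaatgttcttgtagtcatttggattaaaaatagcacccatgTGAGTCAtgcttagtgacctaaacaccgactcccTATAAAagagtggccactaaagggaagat
Atp13a4: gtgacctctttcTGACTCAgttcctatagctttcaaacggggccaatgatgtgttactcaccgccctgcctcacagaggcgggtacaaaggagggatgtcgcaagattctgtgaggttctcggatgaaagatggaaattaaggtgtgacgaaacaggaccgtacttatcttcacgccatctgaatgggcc
The CRE was in 1.79% of 32851 mouse promoter windows, AP-1 in 7.81% and the TATA box in 13.6%. The CRE began 49 bases before the *Gpm6b* start. The AP-1 letters began 63 bases before the *Mmp10* start and 178 before that of *Atp13a4*, and the TATA box of *Mmp10* began at 29 bases. No motif was shared by more than 11 of the 20 genes, the most frequent being the GC box (GGGCGG), which was in 51.9% of the 27 windows of these genes and 35.7% of all windows. TTCNNNGAA, the letters bound by STAT factors, was in none of the 27 windows and in 8.30% of all windows. Of the same 27 windows, 25.9% held the CCAAT box (CCAAT), against 37.4% of all windows. The E-box (CACGTG) was in 11.1% against 7.15%, and the TEAD letters (GGAATG) in 14.8% against 14.7%. These shares count windows, and some windows of *Rap1gap* overlapped, so its E-box and some of its GC boxes were counted more than once. The 3 windows with an E-box came from 2 genes, *Rap1gap* and *Gaa*. AP-1 letters were in 7.41% of the 27 windows, the TATA box in 7.41% and the CRE in 3.70%. These matches describe letters in the sequence and are not binding sites.

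The 20 genes lay on 13 chromosomes, with 3 each on chromosomes 6 and 9, and no 2 of their starts were within 1 Mb. By GENCODE annotation of GRCm38, 18 were protein coding and 2 were long noncoding RNAs. Their exons had a median length of 4175 bases, against 4281 for all genes averaging at least 50. The ratio of the mean knockout to the mean control level ranged from 1.94 to 21.4 with a median of 3.17. It was at least 4 in 4 genes, 2 to 4 in 15 and under 2 in 1, *Ttc12*. Per kilobase of exon, 6 of the 20 lay above the median of all genes with a mean of at least 50, namely *Mmp10*, *Gc*, *Gaa*, *Gpm6b*, *Atp13a4* and *Avpr1a*. *Mmp10* was the most abundant, with 4939 normalized counts per kb at the 96.9th percentile, and *Ypel1* and *D630003M21Rik* the least, with 14.0 and 14.1 per kb.

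**Figure D1:**
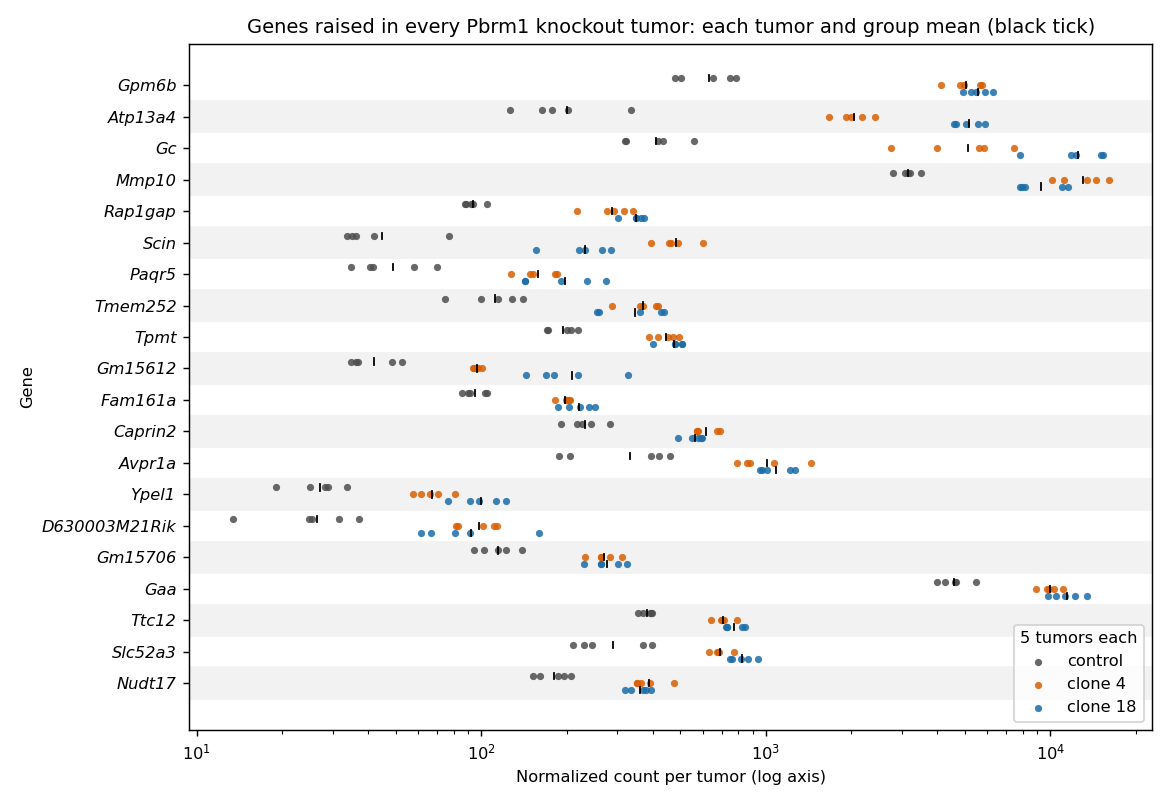
Normalized count of each of the 20 genes (rows) in each tumor on a log axis, with grey points for control, orange for clone 4 and blue for clone 18 (5 tumors each) and a black tick at each group mean. The grey points lie left of all orange and blue points in every row, as the rule requires, and the blue points lie right of all orange points for *Atp13a4*, *Gc* and *Gm15612*.

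Among the secreted proteins, *Gc* (chr5:89417522-89457898, minus strand) encodes the vitamin D binding protein, an albumin relative that the liver releases into plasma. Its normalized counts were 558, 323, 321, 435 and 417 in control tumors 1 to 5, 4012, 7455, 2757, 5600.2 and 5828 in clone 4 tumors and 15357.5, 7831.5, 12261, 15114 and 11788.5 in clone 18 tumors. All clone 18 tumors lay above all clone 4 tumors, and the highest clone 4 tumor was close to the lowest clone 18 tumor. The mean level was 12.5 times the control mean in clone 4 and 30.4 times in clone 18. *Gc* had the widest spread of the 20 genes within clone 4, with an SD of 0.56 on the log2 scale.

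*Mmp10* (chr9:7502352-7510240, plus strand) encodes stromelysin-2, a matrix metalloproteinase. Its counts were 3089, 2802.5, 3517, 3152 and 3203 in the controls, 13472.5, 11175.5, 16035, 10146 and 14524 in clone 4 and 8121, 11542, 11002, 7854.5 and 7949 in clone 18. The control tumors were close to one another, and clone 18 tumors 12 and 13 lay within the range of clone 4, while the other 3 lay below it. The summed level of 11 fibroblast markers overlapped between the groups, at 56326 to 93132 in control, 21908 to 197791 in clone 4 and 70027 to 135501 in clone 18 tumors, and its part in the *Mmp10* level was not tested.

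Among the genes were 2 membrane transporters. *Atp13a4* (chr16:29395853-29544864, minus strand), a P5-type ATPase of internal membranes, had counts of 335, 178, 126, 164 and 200.9 in the controls, 1991, 1673, 2422, 2185 and 1912 in clone 4 and 4662, 5897, 5592, 4603 and 5058 in clone 18. The groups sat at 3 separate levels, with no overlap between any pair of them, and control tumor 1 was the highest of its group. *Slc52a3* (chr2:151996511-152009258), a riboflavin transporter, had counts of 371, 229, 398, 211 and 245 in the controls, 685, 773, 632, 678 and 674 in clone 4 and 865, 746, 763, 816 and 937 in clone 18. Control tumors 1 and 3 were higher than the other 3, and both clones lay above all of them.

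The largest gap between the groups, a lowest knockout value 5.26 times the highest control value, belonged to a membrane protein. *Gpm6b* (chrX:166238911-166388988, plus strand), of the proteolipid family best known from neurons and glia, had counts of 747, 478, 785, 502 and 654.5 in control tumors. Its counts were 5749, 4963, 5651, 4822 and 4133 in clone 4 and 6309, 5278, 4929.6, 5492 and 5911 in clone 18. The 2 clones overlapped, with means 7.99 and 8.81 times the control mean. *Avpr1a*, the vasopressin V1a receptor, had counts of 396, 188, 423, 205 and 461 in the controls, 1436, 789, 1072, 857 and 879 in clone 4 and 1215, 969.6, 957, 1011 and 1265 in clone 18. Its control SD on the log2 scale, 0.62, was the largest of the 20 genes, with tumors 2 and 4 below the other 3.

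*Paqr5* encodes a membrane progestin receptor, and *Tmem252* a transmembrane protein. *Paqr5* had counts of 58.0, 40.5, 41.7, 34.7 and 69.8 in the controls, 152, 184, 127, 148 and 182 in clone 4 and 191, 143, 143, 236 and 275 in clone 18. *Tmem252* ranged from 74.3 to 140.1 in the controls, 288 to 417 in clone 4 and 255 to 437 in clone 18. The clones overlapped for both genes, and the highest *Paqr5* values were in clone 18 tumors 14 and 15.

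Another 4 genes act in signaling, the cytoskeleton or RNA binding. *Scin* (chr12:40059769-40134228, minus strand), scinderin, is a calcium-dependent actin-severing protein of the gelsolin family. Its counts were 41.8, 35.2, 36.2, 77.3 and 33.8 in the controls, 599.8, 463.5, 458.5, 395 and 491 in clone 4 and 155, 266, 219.9, 231.5 and 287 in clone 18. Here the order of the clones was the reverse of that for *Gc* and *Atp13a4*, with every clone 4 tumor above every clone 18 tumor, and control tumor 4 stood above the other controls. *Rap1gap*, which switches off the small GTPase Rap1, had counts of 104, 93.4, 88.1, 91.9 and 87.8 in the controls, 292, 317, 340.2, 276.5 and 217 in clone 4 and 351, 301, 351, 374 and 365 in clone 18. The 5 controls were close, and the clones overlapped. *Caprin2*, an RNA-binding protein, ranged from 191 to 284 in the controls, 573 to 689 in clone 4 and 493 to 598 in clone 18. *Ypel1*, of the yippee-like family, ranged from 19 to 33.8, 57.3 to 80.6 and 76.3 to 122 in the same order, resting on 17 to 32 reads in the control tumors.

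Beside *Mmp10* and *Atp13a4*, described above, 3 of the genes encode other enzymes. *Gaa* (chr11:119267887-119285454, plus strand), the lysosomal acid alpha-glucosidase that breaks down glycogen, had counts of 5476.5, 4617, 3992, 4259 and 4664 in the controls, 9771.5, 11088.5, 10285, 9874 and 8928 in clone 4 and 11264, 9829.6, 10508, 12163 and 13409.6 in clone 18. *Gaa* combined a high level with a modest ratio of means, 2.33. *Tpmt*, which methylates thiopurines, ranged from 170.2 to 218 in the controls, 389 to 493 in clone 4 and 402 to 509 in clone 18. *Nudt17*, a nudix hydrolase, ranged from 151.5 to 207 in the controls, 352 to 476 in clone 4 and 319 to 395 in clone 18.

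Known roles linked to cilia belong to 2 of the proteins. *Ttc12*, needed for assembly of ciliary dynein arms, had counts of 399, 396, 390.4, 369.8 and 355 in the controls, 640.3, 712, 791, 702 and 698.5 in clone 4 and 731, 848, 827, 724 and 728 in clone 18. It had the smallest ratio of means but also the smallest control SD on the log2 scale, 0.072. *Fam161a*, a ciliary protein of photoreceptors, ranged from 85.4 to 104 in the controls, 181 to 205 in clone 4 and 186 to 252 in clone 18.

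The remaining genes are 2 noncoding RNAs and an uncharacterized protein-coding gene. *Gm15612* (chr6:88842854-88847274, plus strand), an antisense RNA, had counts of 34.8, 52.8, 36.2, 37.0 and 48.6 in the controls, 97.4, 95.6, 94.5, 93.3 and 100.3 in clone 4 and 179.6, 169, 329, 218.5 and 143 in clone 18. The clone 4 tumors were almost equal, and every clone 18 tumor lay above them. *Gm15706* (chr6:145250529-145251849, plus strand), a lincRNA, ranged from 94.1 to 138.5, 232 to 312 and 229 to 325 in control, clone 4 and clone 18 tumors. *D630003M21Rik* ranged from 13.4 to 37.1, 81.6 to 114 and 61.5 to 159.7 in the same order, with 12 to 40 reads in the control tumors.

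The genes nearest to the margin differed little across it. Just inside were *Nudt17* with a ratio of lowest knockout to highest control value of 1.54, *Slc52a3* with 1.59, *Ttc12* with 1.60, *Gaa* with 1.63 and *Gm15706* with 1.65. Just outside were *Acot3* with 1.48, *Raet1d* with 1.45 and *Lyplal1*, *Xlr3a* and *Fam171a1*, each with 1.42. The ratio was 2 or more for 6 genes, *Gpm6b*, *Atp13a4*, *Gc*, *Mmp10*, *Rap1gap* and *Scin*. The lowest knockout tumor belonged to clone 4 for 13 genes and to clone 18 for 7. Tumor by tumor, the median over the 20 genes of the log2 level over the control mean was -0.15 to 0.15 in the control tumors and ranged from 1.29 in tumor 10 to 1.73 in tumor 11 among the knockout tumors.

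The spread within groups is given as a description, since the rule and its minimum mean read the same values. The median SD of the 20 genes on the log2 scale was 0.28 in the controls, against 0.14 for all genes with a mean of at least 50. It was 0.19 against 0.15 in clone 4 and 0.18 against 0.16 in clone 18.

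The comparison of the 2 knockout clones asks whether the raised genes reached the same level in both, and the rule set no condition on this difference, although its minimum mean and lowest knockout value read the tumors of both clones. By limma with Benjamini-Hochberg adjustment over 18250 genes, 3 of the 20 genes were higher in clone 18 (2.49% of all genes) and 2 were higher in clone 4 (2.13%). The 5 genes were 25.0% of the 20, where 4.62% of all genes and 5.72% of those with a mean of at least 50 differed in either direction. *Atp13a4* was higher in clone 18 by 1.35 ± 0.18 on the log2 scale (SE, adjusted p = 0.000229), with means of 5162 ± 570 and 2037 ± 283. *Gc* was higher in clone 18 by 1.32 ± 0.24 (adjusted p = 0.00284), with means of 12470.4 ± 3056 and 5131 ± 1803. *Gm15612* was higher in clone 18 by 1.04 ± 0.21 (adjusted p = 0.00602), with means of 208 ± 72.8 and 96.2 ± 2.73. These are the genes in which every clone 18 tumor lay above every clone 4 tumor, as was so for 3.05% of all genes with a mean of at least 50.

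In the other direction, the *Scin* difference, clone 18 minus clone 4, was -1.07 ± 0.22 (limma, adjusted p = 0.00762), with means of 232 ± 50.5 and 482 ± 74.9. *Scin* was the only one of the 20 with every clone 4 tumor above every clone 18 tumor (3.69% of genes with a mean of at least 50). The *Mmp10* difference was -0.49 ± 0.13 (limma, adjusted p = 0.0374), and 3 of 5 clone 18 tumors lay below all clone 4 tumors. The *Mmp10* call rested on single tumors, because leaving out any of tumors 1, 5, 6, 8, 10, 11, 14 or 15 gave an adjusted p between 0.0521 and 0.0979. The other 15 genes did not pass, with differences from -0.17 to 0.56 and no 95% bound beyond 0.98. For *Gpm6b* the difference was 0.15 with a 95% interval of -0.13 to 0.42. For *Ypel1* it was 0.56 with an interval of 0.14 to 0.98 (limma, adjusted p = 0.13).

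**Figure D2:**
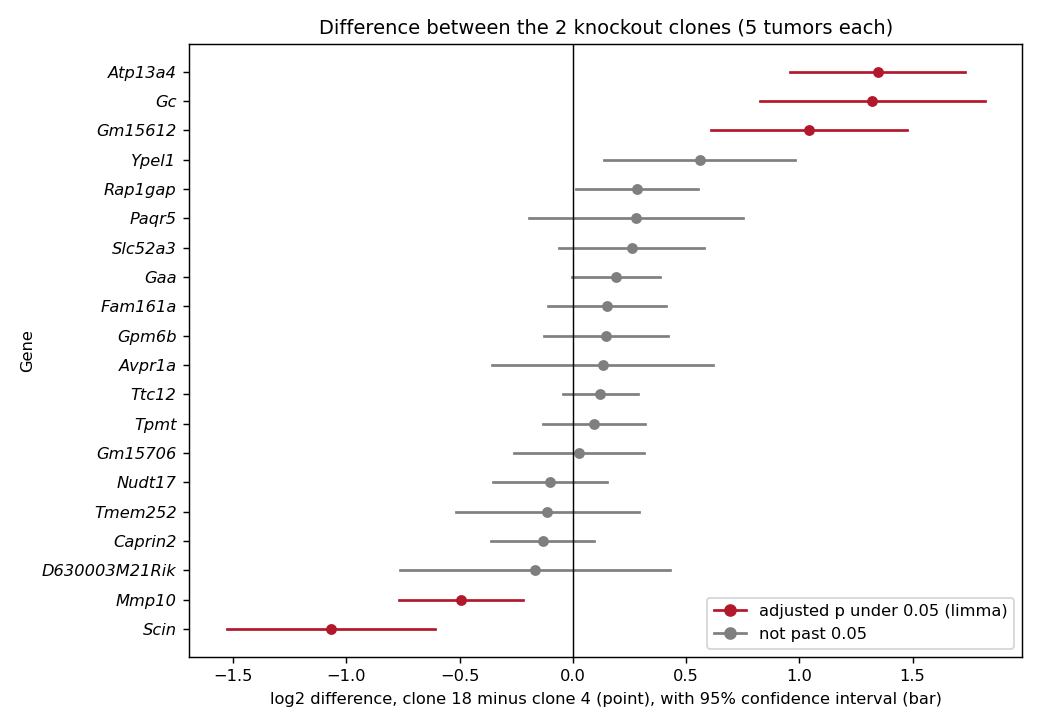
Difference between the knockout clones for each of the 20 genes, as log2 of clone 18 minus clone 4 (points) with 95% confidence intervals (bars), 5 tumors per clone. Red marks the 5 genes past an adjusted p of 0.05, *Atp13a4*, *Gc* and *Gm15612* on the side of clone 18 and *Mmp10* and *Scin* on the side of clone 4, and the other 15 are grey.

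Relatives of 13 of the genes were compared between knockout and control tumors, since they took no part in the rule. Those counted for *Rap1gap* include the Rap GTPases, the kind of protein it acts on, beside other Rap GTPase-activating proteins. Of 69 relatives in the table, 6 were higher in knockout tumors (9.23% of all genes), 16 were lower (12.9%) and 47 did not pass, by limma with Benjamini-Hochberg adjustment over all genes. The albumin relative *Afp*, alpha-fetoprotein, was lower, at 391 ± 137 in control, 145 ± 38.7 in clone 4 and 104 ± 31.3 in clone 18 tumors (difference -1.63, adjusted p = 0.00013).

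The gelsolin family relatives of *Scin* moved in both directions. *Vil1*, villin, was lower by 3.15 on the log2 scale, at 84.7 ± 11.1 in control and 7.24 ± 3.56 and 11.8 ± 5.15 in the clones, and *Vill* had a difference of -0.49. *Capg* was higher by 0.25, and *Gsn*, *Avil*, *Svil* and *Flii* did not pass. Of the relatives of *Atp13a4*, *Atp13a3* had a difference of -0.31 (limma, adjusted p = 0.03), and *Atp13a1* and *Atp13a2* did not pass. *Plp2*, a relative of *Gpm6b*, did not pass, and *Gpm6a* had no read in any knockout tumor and at most 7 in a control tumor. *Slc52a2*, the other riboflavin transporter in the table, was higher by 0.41 ± 0.08 (adjusted p = 0.000827), at 940 ± 71.3 in control, 1284 ± 142 in clone 4 and 1226 ± 116 in clone 18.

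Of 5 metalloproteinase relatives of *Mmp10*, *Mmp12*, the macrophage elastase, was higher by 0.88 ± 0.24 (limma, adjusted p = 0.012), at 2537 ± 537, 3996 ± 1638 and 5853 ± 2131. The summed macrophage markers, given above, were lower in knockout tumors, and their part in the *Mmp12* level was not tested. *Mmp12*, 132853 bases from *Mmp10*, is also counted among the higher neighbors below. *Mmp3*, stromelysin-1, differed by 0.87 ± 0.61 and did not pass (adjusted p = 0.343). Of 4 relatives of *Ypel1*, 3 were lower, among them *Ypel5* with a difference of -0.47 ± 0.08 (adjusted p = 0.00067), and none was higher. Among 10 relatives of *Paqr5*, *Paqr4* was higher by 0.52 and *Paqr3* and *Paqr6* were lower. Among 19 nudix relatives of *Nudt17*, *Nudt9* and *Nudt19* were higher and 5 were lower. None of the 3 relatives of *Gaa* passed. *Caprin2* had 1 relative in the table, *Caprin1*, with a difference of -0.20 that did not pass by limma (adjusted p = 0.0604). *Caprin1* did pass by DESeq2 (adjusted p = 0.0456) and in some limma fits without 1 knockout tumor. *Avpr1a* also had 1, *Oxtr*, whose reads, at most 5 per tumor, were too few for a reading. Of 10 genes set beside *Rap1gap*, only *Rap1b*, one of the GTPases it acts on, passed, with a difference of -0.26. Single control tumors decided some of these calls, since *Atp13a3* no longer passed without tumor 1, 2 or 3 (adjusted p of 0.0747 to 0.0836), *Rap1b* without tumor 1 or 5 (0.0643 and 0.0691), *Ypel2* without tumor 2 or 5 (0.0652) and *Capg* without tumor 3 (0.0503), all by limma.

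**Figure D3:**
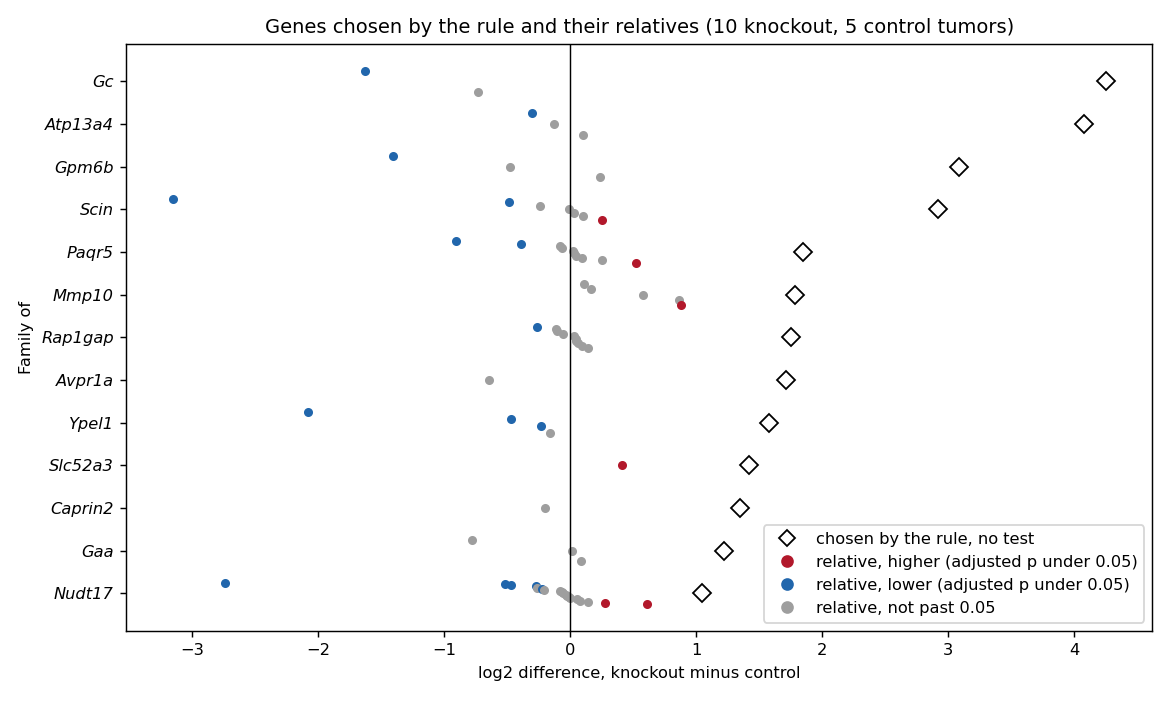
Difference between knockout and control tumors on the log2 scale for 13 of the genes (open diamonds, chosen by the rule and not tested). Circles, offset vertically only to separate them, are their 69 relatives, which for *Rap1gap* include Rap GTPases. Red circles are the 6 relatives higher in knockout tumors, blue the 16 lower and grey the 47 that did not pass. Every diamond lies to the right of all circles in its row. The rule made this likely beforehand, since it chose the diamonds for a large difference of this kind.

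Wider lists of pathways and gene families were read in the same way. Of 300 genes on 18 lists, other than the 20, 25 were higher in knockout tumors (8.33%, against 9.23% of all genes) and 52 were lower (17.3%, against 12.9%). These counts overlap those of the relatives above, which include the genes of the gelsolin, albumin, P5-type ATPase and proteolipid lists. The renal tubule list, which holds *Gc*, had 26 other genes in the table, of which *Aqp2*, *Spp1* and *Epcam* were higher and 5 were lower, among them *Scnn1a*, *Lcn2*, *Krt7* and *Krt18*. *Aqp2*, the vasopressin-regulated water channel, was higher by 0.62 ± 0.15 (limma, adjusted p = 0.00514), at 287 ± 37.2 in control, 387 ± 58.9 in clone 4 and 510 ± 96.2 in clone 18. The differences of *Spp1* and *Epcam* were larger, at 0.70 and 1.23. Any link between the levels of *Aqp2* and *Avpr1a* was not tested. Among the 17 other genes of the neuronal and glial list, which holds *Gpm6b*, none was higher and 3 were lower.

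Genes lying close by were examined because they share the chromosome around each raised gene but not the rule. Within 500 kb of the 20 genes were 217 other genes, of which 29 were higher in knockout tumors (13.4%, against 9.23% of all genes) and 20 were lower (9.22%, against 12.9%), and the median log2 difference was 0.015. At least 1 higher neighbor lay near 13 of the genes and none near 7. The number of neighbors ran from 2 for *Gc* and *Avpr1a* to 43 for *Nudt17*. More neighbors give more occasions for a higher one, and no share expected by chance was worked out for this count. *Gemin8*, near *Gpm6b*, was higher by 0.74 ± 0.08 (limma, adjusted p = 5.11e-06). *Gm26588*, 116994 bases from *Gm15612*, averaged 91.4 ± 46.5, 146 ± 19.2 and 382 ± 78.6, with its highest level in clone 18 as for *Gm15612* (knockout minus control, 1.49, limma, adjusted p = 0.00679).

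The neighbors of *Ypel1* differed, with 6 of 21 lower in knockout tumors and none higher. *Alpl*, alkaline phosphatase, 11872 bases from *Rap1gap*, was lower by 2.94 on the log2 scale (limma, adjusted p = 0.000896), at 119 ± 93.9, 10.7 ± 6.38 and 13.3 ± 9.77. Of the 20 genes, 8 overlapped a gene on the other strand and none a gene on the same strand. These overlaps are between whole gene spans, and shared exons were not examined. The counting is not stated to use strand, so reads from any exon stretch that such a pair shares may not be told apart. This could bear on *Rap1gap*, whose overlapping *Rap1gapos* was higher by 0.90 (limma, adjusted p = 0.0302) at a mean of only 32.8. It could also bear on *Tpmt*, whose partner *Kdm1b* was higher by 0.29. The partners of *Gm15612*, *Ypel1* and *Nudt17*, namely *Podxl2*, *Ppil2* and *Pias3*, did not pass.

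**Figure D4:**
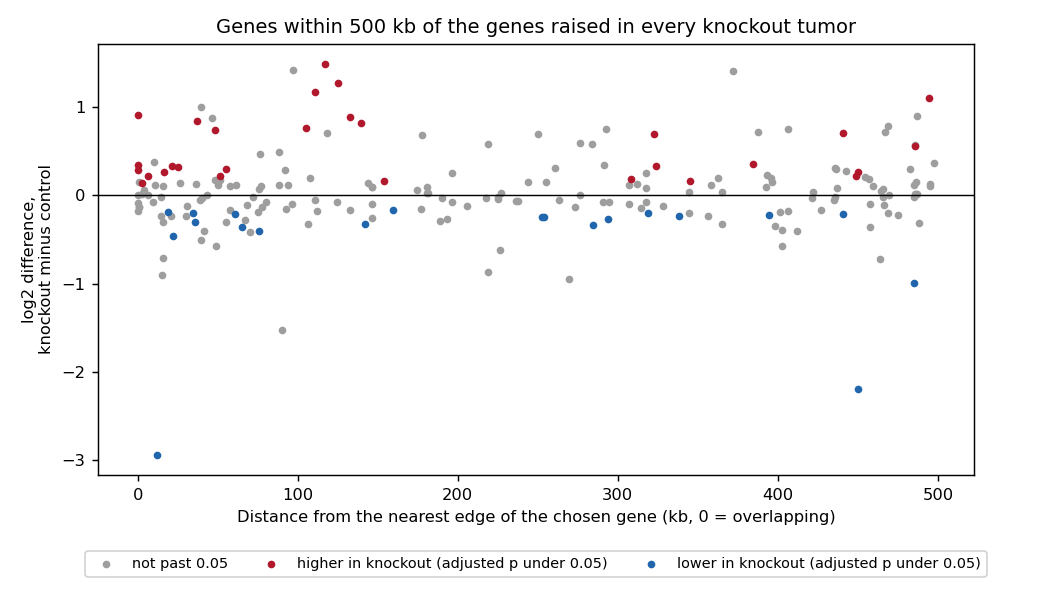
Difference between knockout and control tumors (log2) of the genes within 500 kb of the 20 genes, against distance in kb from the nearest edge of the raised gene, with 0 for an overlap. Red points are higher (29 genes), blue lower (20 genes) and grey not past an adjusted p of 0.05, and red points occur both next to the raised genes and far from them.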

How the data were processed

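RNA from 15 tumors was sequenced in bulk. Per the study's methods and the submitters' processing notes, reads were aligned to mm10 with TopHat2, counted per gene with HTSeq and normalized with DESeq; versions, annotation and strand setting are not given in the sources used here. The deposited values are signal, normalized counts rounded by the authors to 0.1. Each of the 15 columns was matched to its sample by name. In every sample 100% of values up to 8000 lay within 0.06 of a whole multiple of the step that 1 read is worth, and these multiples gave the reads.

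The members, lists, families and motifs were chosen with earlier results of these data known, and roles were assigned after the members were known. Named genes were the 12 members with the widest gap, the 8 with the highest mean, those 5 inside and 5 outside the margin, members that differed between the clones (up to 5 each way) and members on a list; other members serve as examples of a role. Relatives and neighbors named singly were chosen after their values were seen.

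The test was limma 3.58.1 with trend in R 4.3.3 on log2(normalized count + 1) of 18250 genes with a value above 0, with Benjamini-Hochberg adjustment and a threshold of 0.05. The clone comparison used 1 fit of the 3 groups, and knockout against control pooled both clones. Fold changes on this scale understate those of low genes. On the reads recovered, edgeR 4.0.16 called 823 genes between the clones and DESeq2 1.42.0 called 1359, against 844 by limma. Scripts were tested on simulated data. Alternatives were other pseudocounts, a minimum mean, other scalings, limma without trend and leaving out each tumor. Annotation was GENCODE M21 (GRCm38) and promoters RefSeq GRCm38.p6, from 250 bases before to 50 after a start. Some results are not reported here.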

Additional observations from a re-analysis of the deposited data

Results flagged for a closer look

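In the control group, tumor 4 had a *Scin* count of 77.3, far from the other 4 controls at 33.8 to 41.8. Sets of 5 tumors were examined for such a gap in 63 gene and group pairs, 1 showed it, and chance gives about 1 in 20, or 3.15 here.

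Between clone 18 and clone 4, limma found differences on the log2 scale of 1.35 for *Atp13a4*, 1.32 for *Gc*, 1.04 for *Gm15612*, -0.49 for *Mmp10* and -1.07 for *Scin*. Every tumor of one clone lay on one side of the other clone for each of these except *Mmp10*.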

How the results depend on the processing

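No paired analysis was possible because no label links a tumor of one group to a tumor of another. The rule gave 20 genes, 40 with clone 4 alone, 57 with clone 18 alone and 6 with a ratio of 2. It gave 20 to 26 when each tumor was left out in turn, where leaving out a tumor can only widen the ratio and so says nothing of stability. All 20 genes were kept under upper quartile, quantile and TMM scaling. The genes higher in clone 4 numbered 2, but 1 under upper quartile scaling, 1 under quantile normalization and 1 with limma without trend, and 1 to 2 when each tumor was left out. The gene lost was *Mmp10*, with adjusted p of 0.0512, 0.0521 and 0.0805 by limma under these 3 settings. The genes higher in clone 18 numbered 3 except under DESeq2, which gave 4 by adding *Ypel1* (adjusted p = 0.043). Pathway genes outside the 20 that were higher ranged from 20 to 28 and those lower from 42 to 61. Of the 22 relatives called, *Gpm6a*, *Atp13a3* and *Nudt22*, among others, lost their calls under both another setting and a left-out tumor, and *Rap1b*, *Capg* and *Ypel2* when a single control tumor was left out. None changed direction. With 12 to 40 reads per control tumor, the levels of *D630003M21Rik* and *Ypel1* are the least precise.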
